A study of Mus musculus with 7 samples.

Results

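Stem cells at the base of the intestinal crypt carry the R-spondin receptor Lgr5, and a set of further genes is used with it to mark them. The genes described here are 10 such markers, taken as every probe set whose platform annotation gives exactly 1 gene symbol equal to one of them. That rule found 20 probe sets of 9 genes, among 45141 probe sets and 17097 genes in all: 4 for Cd44, 3 each for Ascl2 and Tnfrsf19, 2 each for Lgr5, Lgr4, Smoc2 and Lrig1, and 1 each for Olfm4 and Prom1. Cdca7 was not analysed here because the annotation used paired none of the probe sets with that symbol. The rule itself used no values, but the markers were chosen with earlier results of these data known.

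The samples were tumour cells of the mouse colon on Affymetrix arrays, 4 labelled WT and 3 labelled KO for Mex3a, which encodes an RNA-binding protein of intestinal stem and progenitor cells. All animals carried a Tomato allele of Mex3a, the Villin CreERT2 transgene, which gives a tamoxifen-dependent recombinase in gut epithelium, and 1 floxed Apc allele. The second Mex3a allele was floxed (tom/flox, read here as the KO genotype) or wild type (Tom/+, read as WT). Every animal received 4 tamoxifen injections and 5 days of 2% dextran sulfate sodium (DSS) in the drinking water, a treatment that injures the colon, and adenomas were collected 2 months after DSS was withdrawn. Epcam-positive, Tomato-positive cells were sorted, where Tomato reports an active Mex3a promoter in both groups, and the RNA of 2000 cells was amplified over 24 cycles. Values are log2 levels, 1 array per sample. No label states that the arrays came from different mice; the p-values therefore reflect array-to-array spread, part of which may be technical. The number of arrays limits the precision.

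In the crypt, Wnt signalling keeps stem cells in their state, and R-spondins raise it by binding Lgr receptors and removing the ubiquitin ligases Rnf43 and Znrf3 from the cell surface. Loss of Apc activates the same pathway without the ligand, and many crypt-base markers are among its targets. Wnt-driven colon adenomas are known to contain cells with this programme.

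Mex3a itself was lower in KO, at 7.41, 7.38, 7.50 and 7.01 in WT replicates 1 to 4 against 6.18, 6.29 and 6.07 in KO replicates 1 to 3, with no overlap. Its difference was -1.13 (SE 0.13), with an adjusted p of 0.142 in limma, so the targeted gene itself did not pass the threshold over all genes; the labels do not say whether its probe set lies in the floxed stretch. Over the 12822 genes tested, 0 passed an adjusted p of 0.05 in limma (0%), and 1462 (11.4%) had an unadjusted p under 0.05, 916 of them (7.14%) with KO above WT and 546 (4.26%) with KO below. With array weights 1370 of the 12822 genes passed, and 2 passed without WT replicate 2 or without WT replicate 4. None of the 8 crypt-base genes tested was among them. Array medians over all probe sets lay between 5.96 and 6.00. The epithelial gate was matched by Epcam, which lay between 11.87 and 11.99 on the 7 arrays. Scan batch, given in the labels, was a term of the fit: batch 1 held WT replicates 1 and 2 and KO replicate 1, and batch 2 held WT replicates 3 and 4 and KO replicates 2 and 3. Values given for batch 1 therefore rest on 1 KO array.

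None of the crypt-base markers tested differed between the genotypes beyond the spread between arrays. Of the 8 genes tested, 4 had a positive and 4 a negative log2 difference (KO minus WT), beside 43.9% positive among all genes tested, with a median of -0.0058 against -0.019 over all genes tested. The range ran from -0.22 for Tnfrsf19 to 0.14 for Prom1. In limma 0 of the 8 passed, 0 had an unadjusted p under 0.05, and their smallest adjusted p was 0.525. The WT and KO arrays overlapped for all 8, whereas among all genes tested 5.91% did not overlap (2.68% with KO above and 3.23% with KO below). For all 8 the spread among the WT arrays, from lowest to highest, was wider than the difference between the genotypes. The share of all genes for which this holds was not counted, so it does not set the markers apart. That spread includes any shift between the scan batches, which the fitted difference takes out. A p above the threshold does not show equal levels, and the 95% intervals below give the sizes that these arrays leave possible.

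**Figure D1:**
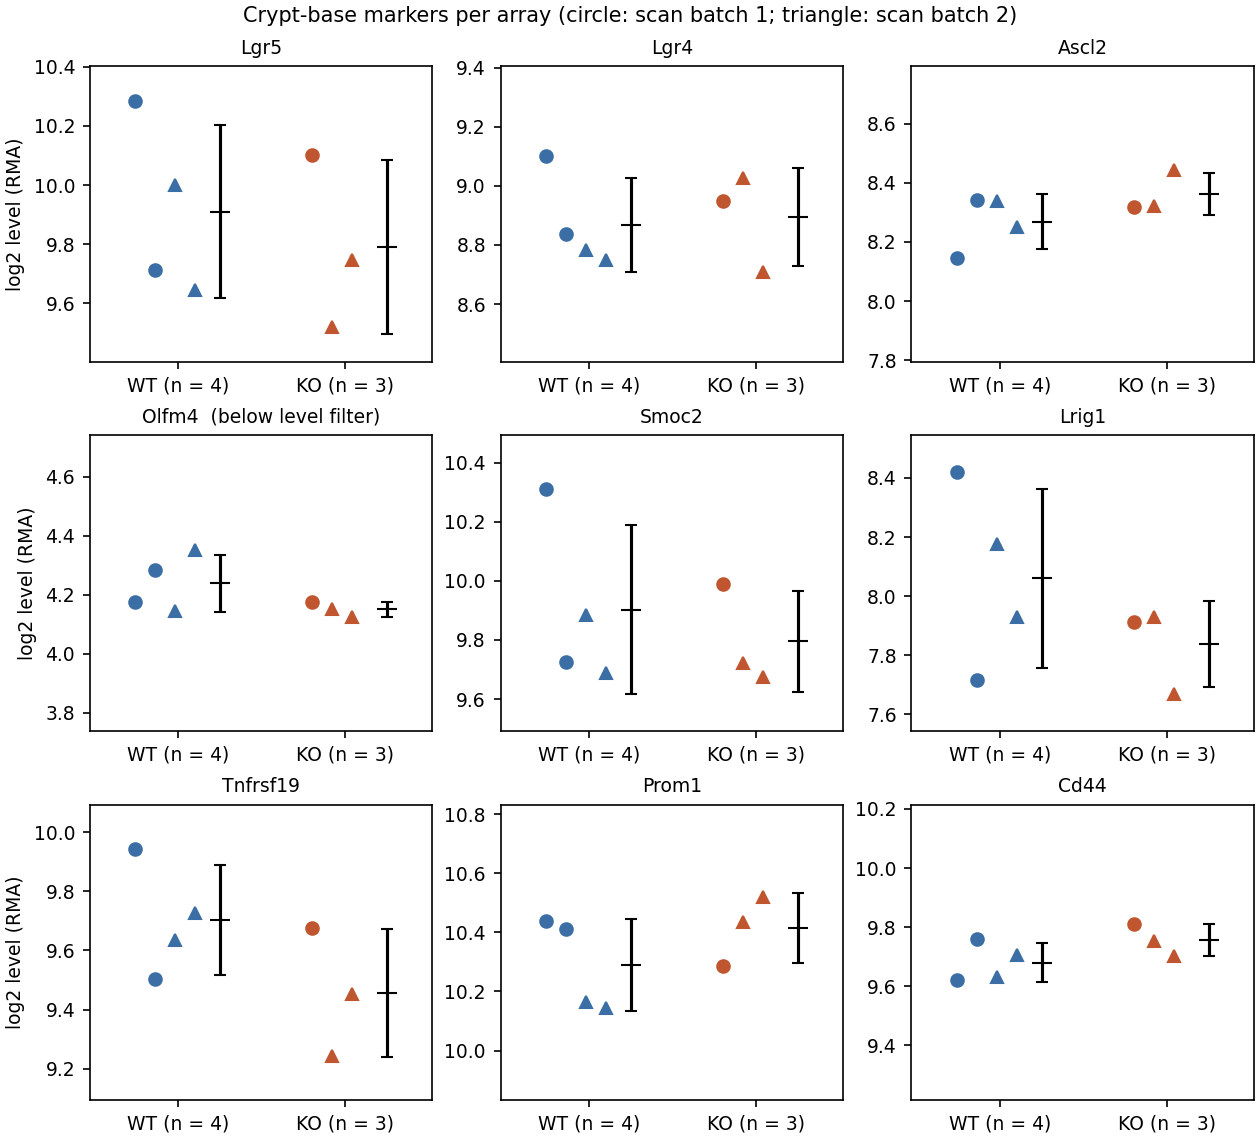
Log2 level (y axis, log2 scale) of 9 crypt-base marker genes on each WT (blue) and KO (orange) array, with the mean and SD beside each group; every panel spans 1 log2 unit and Olfm4 lay below the level filter. The groups overlap in every panel, and the highest array for Lgr5, Lgr4, Smoc2, Lrig1 and Tnfrsf19 is WT replicate 1.

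Lgr5 and its relative Lgr4 are the R-spondin receptors among the markers; Lgr5 is restricted largely to stem cells and Lgr4 is more widely expressed in the crypt. On probe set 1450988_PM_at Lgr5 read 10.28, 9.71, 10.002 and 9.64 in WT replicates 1 to 4 and 10.10, 9.52 and 9.75 in KO replicates 1 to 3. Both genotypes held arrays at high and at low levels, and the array of scan batch 1 was the highest of the KO group. The WT mean was 9.91 ± 0.29 (SD, n = 4) and the KO mean 9.79 ± 0.29 (SD, n = 3). The difference was -0.07 with a 95% interval of -0.44 to 0.30 (limma, adjusted p = 0.870). It was 0.10 within scan batch 1 and -0.19 within scan batch 2. Leaving out WT replicate 1, WT replicate 3 or KO replicate 2 gave 0.0040, 0.047 and 0.015. The direction also turned on the other Lgr5 probe set, 1444519_PM_at, where WT arrays averaged 7.35 ± 0.26 (SD, n = 4) and KO arrays 7.44 ± 0.17 (SD, n = 3), with a difference of 0.14 and a 95% interval of -0.13 to 0.41. The data thus gave no stable direction for Lgr5.

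Lgr4 read 9.10, 8.84, 8.78 and 8.75 in WT and 8.95, 9.03 and 8.71 in KO on probe set 1433891_PM_at. The highest and the lowest of the 7 arrays were a WT and a KO array, and the groups were interleaved. The difference was 0.05 with a 95% interval of -0.21 to 0.31 (limma, adjusted p = 0.858), at -0.02 within scan batch 1, 0.10 within scan batch 2 and -0.038 without KO replicate 2. On its other probe set, 1453765_PM_at, the 4 WT arrays and KO replicates 1 and 2 lay between 5.40 and 5.44, and KO replicate 3 stood at 5.59.

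Ascl2 is a basic helix-loop-helix transcription factor that is a Wnt target and is needed for the stem cell state of the crypt base. It was the one marker with a probe set on which all KO arrays lay above all WT arrays. On 1432018_PM_at Ascl2 stood at 6.86, 6.95, 6.86 and 6.28 in WT replicates 1 to 4, and at 7.05, 7.00 and 7.27 in KO. WT replicate 4 was the lowest by a wide margin, while the highest WT array and the lowest KO array were 6.95 and 7.00. The difference was 0.40 (SE 0.16, 1.32-fold), with an adjusted p of 0.522 over 45037 probe sets (limma). Without WT replicate 4 it was 0.21, and it was 0.15 within scan batch 1 and 0.57 within scan batch 2. The probe set that stood for the gene, 1460514_PM_s_at, read 8.15, 8.34, 8.34 and 8.25 in WT and 8.32, 8.32 and 8.44 in KO. There the groups overlapped and the difference was 0.08, with a 95% interval of -0.13 to 0.29 (limma, adjusted p = 0.714). The difference on 1422396_PM_s_at, which lay below the level filter of 5.28, was 0.05. All 3 Ascl2 probe sets thus had a positive difference, and none passed the threshold.

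Smoc2, a secreted calcium-binding matrix protein, is used as a crypt-base marker, and it is also known from fibroblasts. On 1431362_PM_a_at it read 10.31, 9.73, 9.89 and 9.69 in WT and 9.99, 9.72 and 9.67 in KO. WT replicate 1 stood apart above the other arrays, and KO replicate 1 was next. The difference was -0.06 with a 95% interval of -0.38 to 0.25 (limma, adjusted p = 0.860), and it turned to 0.03 without WT replicate 1. It was -0.03 within scan batch 1 and -0.09 within scan batch 2. The other Smoc2 probe set, 1415935_PM_at, had a difference of 0.06 with a 95% interval of -0.17 to 0.30. Its KO arrays lay within 0.044 of each other, inside the WT range of 0.32.

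Olfm4 encodes a secreted glycoprotein of stem cells in the mouse small intestine and is little expressed in the mouse colon. Its 1 probe set read 4.17, 4.29, 4.14 and 4.35 in WT and 4.17, 4.15 and 4.13 in KO, below the level filter on every array, so it did not enter the test over genes. In the fit over all probe sets its difference was -0.09, with a 95% interval of -0.22 to 0.04 (limma, adjusted p = 0.625). The table gives no detection call, so whether this signal is above background was not tested.

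Lrig1 is a membrane protein that restrains ErbB receptor signalling and marks crypt stem cells. On 1434210_PM_s_at it read 8.42, 7.72, 8.18 and 7.93 in WT and 7.91, 7.93 and 7.67 in KO. The 2 highest arrays were WT replicates 1 and 3, and WT replicate 2 lay among the KO arrays. The difference was -0.21 with a 95% interval of -0.61 to 0.18 (limma, adjusted p = 0.622), and it ran from -0.34 without WT replicate 2 to -0.10 without WT replicate 1. It was -0.16 within scan batch 1 and -0.25 within scan batch 2. The second probe set, 1449893_PM_a_at, also had a negative difference, -0.10, with a 95% interval of -0.41 to 0.20. The KO arrays were closer together than the WT arrays on both probe sets, with ranges of 0.26 and 0.15 in KO against 0.70 and 0.60 in WT.

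Tnfrsf19, also called Troy, is a receptor of the tumour necrosis factor receptor family and a Wnt target of crypt stem cells. It had the smallest p of the 8 genes tested. On 1425212_PM_a_at it read 9.94, 9.50, 9.64 and 9.73 in WT and 9.67, 9.24 and 9.45 in KO. KO replicates 2 and 3 were the lowest arrays, and KO replicate 1 lay inside the WT range. The difference was -0.22 (SE 0.13, 1.17-fold lower), with a 95% interval of -0.52 to 0.08 (limma, adjusted p = 0.525). It was -0.05 within scan batch 1 and -0.33 within scan batch 2. Probe set 1415921_PM_a_at read 8.30, 7.81, 7.99 and 8.14 in WT and 7.92, 7.51 and 7.70 in KO, in nearly the same order of arrays. Its difference was -0.33 (SE 0.14), with an unadjusted p of 0.0497 and an adjusted p of 0.531 (limma). The third probe set, 1448147_PM_at, had a WT mean of 8.414 and a KO mean of 8.406, and a difference of 0.03 in the fit with scan batch, with a 95% interval of -0.20 to 0.26. The KO mean was thus the lower one on all 3 probe sets, and the third turned only with the batch term.

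Promoter windows from 250 bases before to 50 after the start site are given for Tnfrsf19, which had the smallest p of the genes tested and has 2 windows, and for Ascl2, whose probe set was the only one without overlap. They come from RefSeq on GRCm38.p6, which held windows for 8 of the 10 markers. The letters searched on both strands were the core of the TCF/LEF site, through which Wnt signalling acts on its targets, as CTTTGAT or CTTTGAA, and the E-box CAGCTG, a kind of site bound by basic helix-loop-helix factors. The sequences are printed 5′ to 3′ on the strand of the gene, here the minus strand for all 3, and capitals mark the matches.
Tnfrsf19 at chr14:61037938-61038237: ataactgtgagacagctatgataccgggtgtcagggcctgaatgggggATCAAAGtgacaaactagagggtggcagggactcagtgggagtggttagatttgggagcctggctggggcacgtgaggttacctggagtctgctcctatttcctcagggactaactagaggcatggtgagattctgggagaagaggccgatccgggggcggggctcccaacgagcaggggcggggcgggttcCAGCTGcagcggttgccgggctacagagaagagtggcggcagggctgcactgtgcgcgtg
Tnfrsf19 at chr14:61046806-61047105: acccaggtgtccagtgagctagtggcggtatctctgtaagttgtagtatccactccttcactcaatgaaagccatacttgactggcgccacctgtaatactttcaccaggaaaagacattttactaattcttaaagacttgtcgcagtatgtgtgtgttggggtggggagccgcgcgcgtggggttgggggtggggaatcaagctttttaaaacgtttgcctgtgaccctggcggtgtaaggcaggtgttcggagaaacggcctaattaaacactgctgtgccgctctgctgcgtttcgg
Ascl2 at chr7:142969215-142969514: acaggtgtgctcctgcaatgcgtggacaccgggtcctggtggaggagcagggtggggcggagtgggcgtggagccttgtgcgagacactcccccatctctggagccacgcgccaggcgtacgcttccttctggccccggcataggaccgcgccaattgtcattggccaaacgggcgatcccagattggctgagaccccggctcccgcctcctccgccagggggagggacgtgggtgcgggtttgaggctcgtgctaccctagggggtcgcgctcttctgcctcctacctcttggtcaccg
The first Tnfrsf19 window held CTTTGAT on the opposite strand, read as ATCAAAG, 202 bases before the start site, and CAGCTG 10 bases before it. The second Tnfrsf19 window and the Ascl2 window held none of these letters, nor did the windows of Lgr4, Olfm4, Lrig1, Cdca7, Prom1 and Cd44. Of 32851 promoter windows of this length, 3.73% held CTTTGAT, 5.14% held CTTTGAA and 16.3% held CAGCTG, each on either strand. A match describes the letters of a short window and not a bound site.

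Prom1 and Cd44 are surface proteins found on crypt progenitors and used to enrich tumour-initiating cells; Prom1 is a membrane protein of cell protrusions and Cd44 a hyaluronan receptor and Wnt target. Prom1 read 10.44, 10.41, 10.16 and 10.14 in WT and 10.29, 10.44 and 10.52 in KO. The difference was 0.14 with a 95% interval of -0.09 to 0.37 (limma, adjusted p = 0.587). In scan batch 1 the KO array lay below both WT arrays, at -0.14, and in scan batch 2 both KO arrays lay above both WT arrays, at 0.32. Whether the 2 batches differ was not tested.

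Cd44 read 9.62, 9.76, 9.63 and 9.71 in WT and 9.81, 9.75 and 9.70 in KO on 1423760_PM_at. The arrays of both groups were close together, and the difference was 0.08 with a 95% interval of -0.09 to 0.26 (limma, adjusted p = 0.649). It was 0.12 within scan batch 1 and 0.06 within scan batch 2. Probe set 1434376_PM_at read 9.23, 9.51, 9.02 and 9.33 in WT and 9.60, 9.58 and 9.39 in KO. There WT replicate 2 lay above KO replicate 3, and the difference was 0.28 (SE 0.11, 1.21-fold), with an unadjusted p of 0.0389 and an adjusted p of 0.522 (limma). The remaining probe sets, 1443265_PM_at and 1452483_PM_a_at, had differences of -0.00024 and -0.09. The 4 Cd44 probe sets thus did not share a direction.

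Over the 20 probe sets, 11 had a positive difference, beside 41.9% of all probe sets, and the median was 0.04. At an unadjusted p under 0.05 there were 3 (limma), 2 higher and 1 lower in KO, beside 9.39% of all 45037 probe sets (5.58% higher and 3.81% lower), and 0 passed after adjustment, as over all probe sets (0%). The 3 were the Ascl2, Cd44 and Tnfrsf19 probe sets given above. Groups without overlap occurred for 1 of the 20, beside 4.96% of all probe sets (2.16% with KO above and 2.8% with KO below). Probe sets of 1 gene read the same transcripts in part and are not independent.

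**Figure D2:**
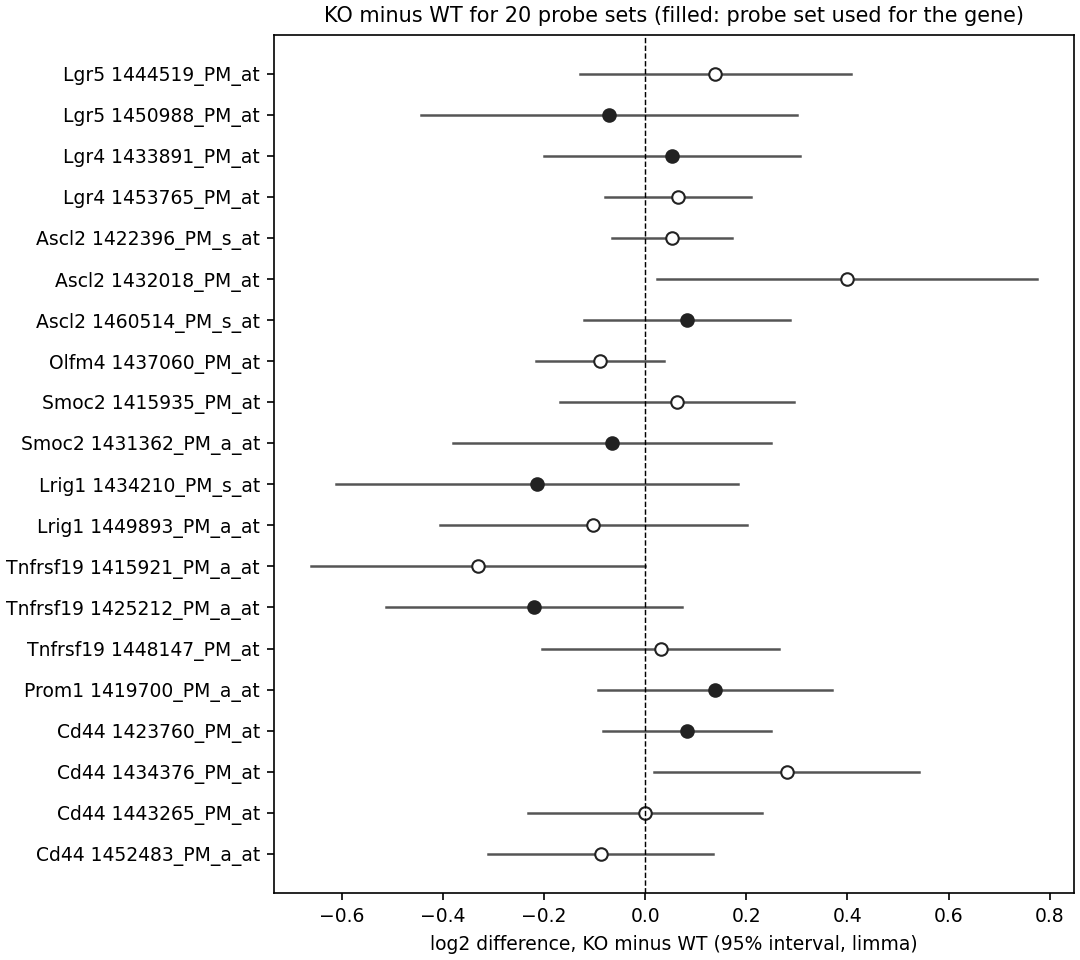
Log2 difference, KO minus WT (x axis), for the 20 probe sets of 9 crypt-base marker genes, with 95% intervals from limma; filled points are the probe set that stood for a gene. Of the 20 intervals, those of 1432018_PM_at (Ascl2) and 1434376_PM_at (Cd44) lie above 0 and that of 1415921_PM_a_at (Tnfrsf19) just below it, before adjustment.

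On 19 of the 20 probe sets the WT arrays spanned a wider range than the difference between the genotypes, a share that was not counted over all probe sets. Some of the markers shared their order of arrays. WT replicate 1 was the highest array on 10 of the 20 probe sets, beside 15% of all probe sets. These were both probe sets of Lgr5, Smoc2 and Lrig1, all 3 of Tnfrsf19 and 1 of Lgr4. Relative to the mean of the 7 arrays, this array stood at 0.42 for Lgr5, 0.45 for Smoc2, 0.45 for Lrig1, 0.35 for Tnfrsf19 and 0.22 for Lgr4. Ascl2 and Cd44 were at their lowest there on the probe sets that stood for them, at -0.16 and -0.09. Ascl2 1432018_PM_at and the remaining Cd44 probe sets were lowest on other arrays. WT replicate 1 had the lowest mean of the goblet and deep crypt secretory markers, at -0.78 relative to all arrays, and of the colonocyte markers, at -0.53. Tff3, a peptide of goblet cell mucus, read 8.96 in WT replicate 1 and between 10.75 and 11.85 on the other arrays. The part of these shifts in the marker levels was not tested, and in sorted pools fewer cells of a type and less RNA per cell cannot be told apart.

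**Figure D3:**
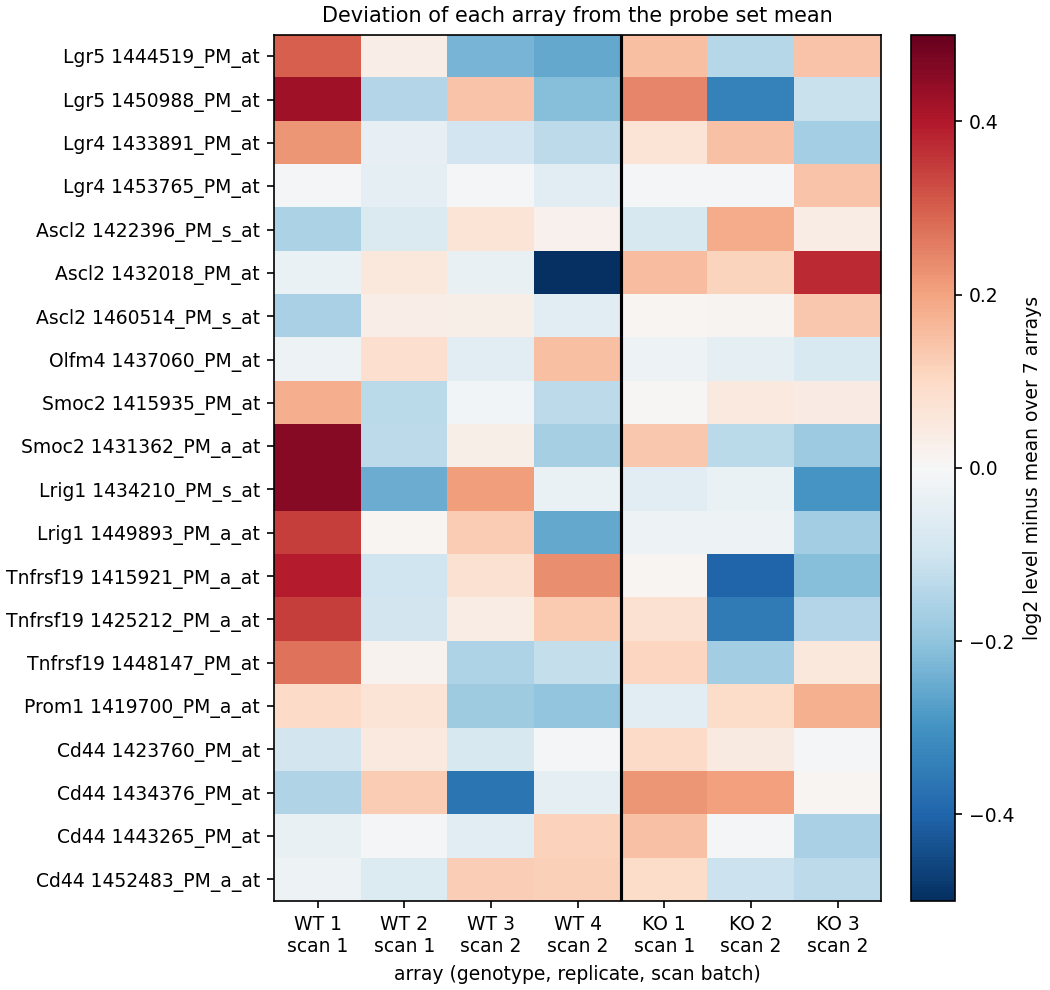
Log2 level minus the mean over the 7 arrays (colour scale in log2 units) for each crypt-base probe set (rows) on each array (columns; the line parts WT from KO). WT replicate 1 is the highest array on 10 of the 20 rows, in the Lgr5, Lgr4, Smoc2, Lrig1 and Tnfrsf19 rows.

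The markers fell apart in how closely they followed Lgr5. Likeness was measured as the mean absolute difference of standardised values (level minus the gene's mean, over its SD) across the 7 arrays, for 12821 other genes, and it is a description of these arrays. Smoc2 was the nearest marker, at 0.32 and rank 64, followed by Tnfrsf19 at 0.42 and rank 264. Lrig1 and Lgr4 ranked 1296 and 1800. Ascl2, Prom1 and Cd44 ranked 8371, 9300 and 9703, farther from Lgr5 than the 4 others over all 7 arrays. The nearest 5 genes of all were Chrnb4, Wdr83os, Cdip1, Ddx52 and Pla2g12a, at 0.15 to 0.19. With all probe sets of a gene averaged, 0 of these 5 stayed among the nearest 5, and Smoc2 ranked 287. The order of the markers moved with single arrays. With 1 array left out Smoc2 ranked between 38 and 247 and Tnfrsf19 between 12 and 943, and without WT replicate 4 Tnfrsf19 (12) was nearer than Smoc2 (247). Without WT replicate 1 Cd44 (4112) was nearer than Lrig1 (4563) and Lgr4 (5046).

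Other genes of the crypt-base programme showed values on both sides of 0. Of 10 tested crypt-base genes beyond the markers, 4 had a positive and 6 a negative difference (median -0.012), with 1 higher and 1 lower at an unadjusted p under 0.05 (limma, 0 after adjustment), beside 7.14% higher and 4.26% lower among all genes. Rgmb, a co-receptor for bone morphogenetic proteins, read 7.82, 7.81, 7.68 and 7.78 in WT and 7.93, 8.12 and 8.04 in KO without overlap, a difference of 0.25 (limma, adjusted p = 0.414). It was the 1 of these 10 genes without overlap, beside 5.91% of all genes tested. Msi1, an RNA-binding protein of stem cells, had a difference of -0.53 (SE 0.19), with WT arrays at 10.15, 9.29, 9.80 and 9.70 and KO arrays at 9.35, 9.19 and 9.03. The water channel Aqp4 had a difference of -0.31 (SE 0.14).

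Of 13 tested Wnt target genes, 10 had a negative difference and 3 a positive one, with a median of -0.08. At an unadjusted p under 0.05 there was 1, lower in KO, and 0 passed after adjustment (limma), beside 4.26% of all genes lower in KO at that unadjusted p. Lef1, a Wnt-induced partner of beta-catenin, read 9.57, 9.18, 9.39 and 9.14 in WT and 9.09, 8.91 and 8.82 in KO, all below the WT arrays, with a difference of -0.35 (limma, adjusted p = 0.414). Axin2 also had all KO arrays below all WT arrays, at 10.66 to 10.69 against 10.73 to 10.86, with a difference of -0.10. These were 2 of the 13 genes, beside 3.23% of all genes tested with KO below. The feedback inhibitors Nkd1 and Notum had differences of -0.24 (SE 0.11) and -0.16 (SE 0.09). Of the R-spondin axis, the ligand genes Rspo1, Rspo2 and Rspo3 lay below the level filter. Rspo4 had a difference of -0.18 (SE 0.13), the ubiquitin ligase Rnf43 of -0.08 (SE 0.09) and the third receptor of the family, Lgr6, of 0.05 (SE 0.08). None of the 4 genes tested there had an unadjusted p under 0.05.

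Genes of DNA replication and mitosis had a median difference of -0.03 over 16 genes, of which 7 were positive. Mcm4 and Mcm3, subunits of the replicative helicase, had differences of 0.32 (SE 0.13) and -0.20 (SE 0.10), and the chromatin remodeller Hells of 0.22 (SE 0.11), which was 0.011 without KO replicate 1. One of the 16 had an unadjusted p under 0.05, higher in KO, beside 7.14% of all genes, and 0 passed (limma).

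Of 9 tested colonocyte genes, markers of absorptive differentiation, 7 were positive with a median of 0.37. Without KO replicate 2 that median was 0.035, and this array stood at 0.72 for the list relative to all arrays, beside -0.12 and 0.10 for KO replicates 1 and 3. Slc26a3, with a positive difference (0.67), passed the level filter of 5.28 only through KO replicate 2, where it read 7.14. It read 4.81 to 5.23 in WT, and 5.19 and 4.86 in KO replicates 1 and 3. With no level filter the colonocyte median was 0.12 over 12 genes. Of 7 goblet and deep crypt secretory genes tested 6 were positive with a median of 0.36. Kit, Clca1 and Zg16 of this list had mean levels below the filter and were left out. Their differences were 0.10, -0.61 and -0.015. With no level filter the secretory median was 0.19 over 10 genes. The median over all genes tested was -0.019, and 43.9% of them were positive. At an unadjusted p under 0.05 there were 2 colonocyte genes and 1 secretory gene, all higher in KO, beside 7.14% of all genes higher in KO, and 0 passed after adjustment (limma). The guanylins Guca2a and Guca2b, peptides that regulate fluid secretion, had differences of 0.85 (SE 0.30) and 0.60 (SE 0.23), and the water channel Aqp8 of -0.11 (SE 0.08). Atoh1, which commits progenitors to secretory fates, had a difference of 0.63 (SE 0.27), Spink4 of 0.53 (SE 0.27) and Tff3 of 0.81 (SE 0.44). The secretory median was -0.07 within scan batch 1, and -0.10 with the 3′ minus 5′ level of the Gapdh control probe sets as a covariate. Of 5 reserve and revival stem markers 4 were positive with a median of 0.10. At an unadjusted p under 0.05 there was 1, higher in KO, beside 7.14% of all genes, and 0 passed after adjustment (limma). The median of these 5 was -0.0042 within scan batch 1, 0.36 with the probe set of largest variance for each gene and 0.28 with all probe sets averaged. The single genes had differences of 0.36 (SE 0.15) for Hopx, 0.40 (SE 0.18) for Anxa1 and 0.10 (SE 0.09) for the Polycomb protein Bmi1. The difference between these lists and the crypt-base markers was not tested.

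**Figure D4:**
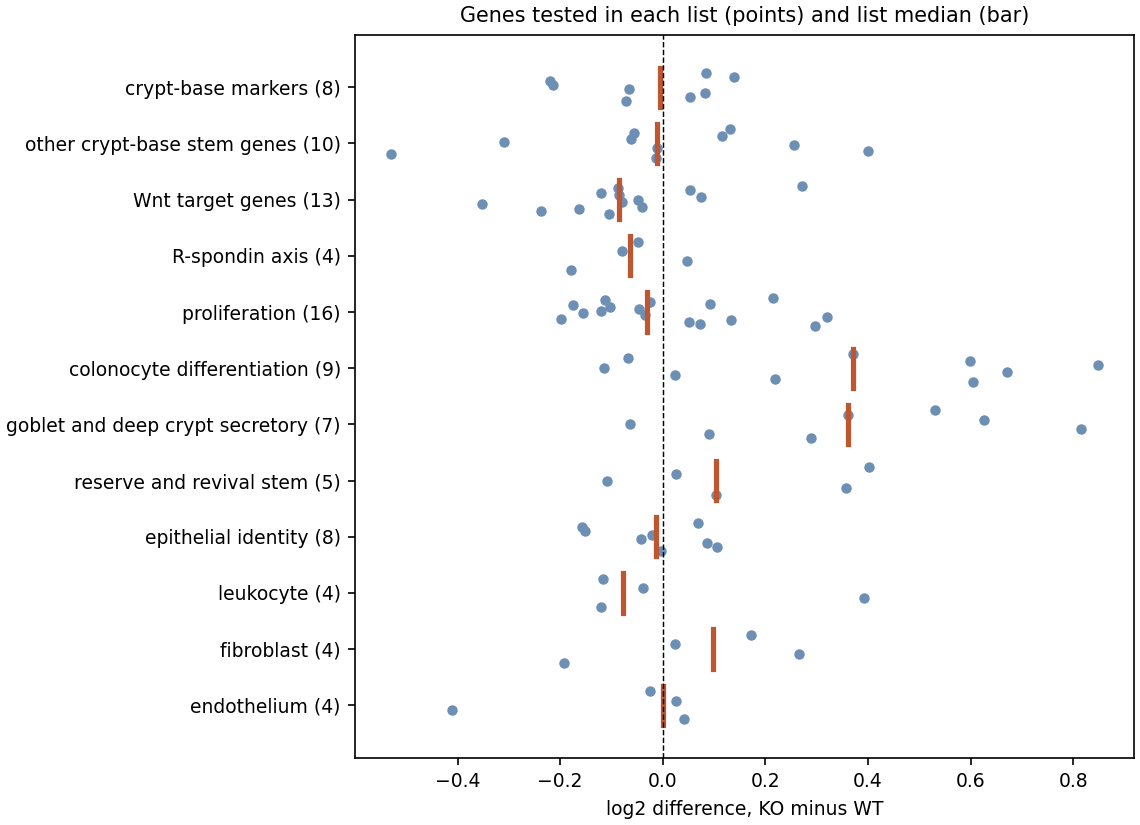
Log2 difference, KO minus WT (x axis), of each tested gene (points) in the crypt-base markers and 11 other lists, with the number of genes tested in brackets and the list median as a bar. The crypt-base median lies at -0.0058, and the colonocyte and secretory medians at 0.37 and 0.36. With no level filter these medians were -0.065, 0.12 and 0.19.

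The lists of markers of cells outside the epithelial gate had lower mean levels than the epithelial list. Of those with a probe set, 3 of 7 fibroblast and 1 of 5 endothelial markers lay below the level filter. Of the leukocyte markers with a probe set, 5 of 9 lay below the level filter, among them Ptprc, the pan-leukocyte CD45, and the list's mean level was 6.18 to 6.28 in WT and 6.19 to 6.34 in KO. The probe set for Lyz2, a lysozyme, read high on all arrays, at 11.63, 12.30, 12.26 and 11.95 in WT and 12.39, 12.53 and 12.42 in KO. The Lyz2 difference was 0.39 (SE 0.15). The name of this probe set ends in x_at, and whether it reads Lyz2 alone was not tested. The Lyz2 values are part of the leukocyte list's mean level. Cd79a, of B cells, and Csf1r, of macrophages, had differences of -0.12 each. Fibroblast markers ranged in mean level from 5.46 to 6.15 in WT and from 5.54 to 6.16 in KO. The collagen gene Col3a1 read 8.26 in WT replicate 3 and 8.37 in KO replicate 2, and between 5.48 and 6.31 on the other arrays, while Col1a1 and Thy1 had differences of -0.19 and 0.17. On these 2 arrays Smoc2 read 9.89 and 9.72, inside the range of the others. Both arrays were of scan batch 2, where Smoc2 read 9.69 in WT replicate 4 and 9.67 in KO replicate 3. Endothelial markers had mean levels of 5.73 to 5.76 in WT and 5.60 to 5.72 in KO, where Cdh5 had a difference of -0.41 (SE 0.09; limma, adjusted p = 0.353), Pecam1 of 0.04 and Vwf of -0.02. Epithelial markers had mean levels of 10.13 to 10.32 in WT and 10.05 to 10.34 in KO, and the differences were 0.11 for Cdh1, -0.16 for Cdx2 and 0.09 for Krt8. Of the 4 genes tested in each of the leukocyte, fibroblast and endothelial lists, 1 had an unadjusted p under 0.05 (limma). These were Lyz2 and Thy1, higher in KO, and Cdh5, lower in KO. Among all genes 7.14% were higher and 4.26% lower at that p, and 0 in these lists passed after adjustment. The part of other cells in the marker levels was not tested.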

How the data were processed

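The authors deposited log2 values from RMA, an array summary method, per the submitters' processing notes. Its version and any batch correction were not stated there. The 45141 probe sets included 104 controls; the annotation gave 1 symbol for 28898 of the rest, several for 551 and none for 15588. Scanner files were not used here, so scale and centring were taken as deposited. For each of 17097 genes the probe set of highest mean was kept and the lowest 25% by mean (5.28 or below) left out, leaving 12822. The genotypes were compared with limma 3.58.1 under R 4.3.3 (lmFit, eBayes with trend, scan batch as covariate, 4 residual degrees of freedom), two-sided, with Benjamini-Hochberg adjustment over all genes at 0.05; a second fit took all 45037 non-control probe sets. Intervals are 95% and unadjusted. Group means and SDs come from the values, differences from the fit. The fit was tested on simulated data. Motifs were matched exactly in RefSeq promoter windows.

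Markers and lists were chosen with earlier results of these data known. The 11 other lists hold 113 entries, and from each the 3 tested genes of smallest p are named, with Mex3a and the 5 genes nearest to Lgr5. Epcam, Ptprc, Axin2, Slc26a3, Kit, Clca1, Zg16 and the R-spondins below the filter were named after their values were seen. Alternatives were another probe set choice, level filter, batch term, single batches, array weights, no trend, a Gapdh covariate, renewed quantile normalization and each array left out.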

Additional observations from a re-analysis of the deposited data

Results flagged for a closer look

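On the Ascl2 probe set 1432018_PM_at, WT replicate 4 stood far below the other WT arrays, at 6.28 against 6.86 to 6.95. Its gap to the next array was 0.864 of the whole WT range, above Dixon's 95% critical value for 4 samples. This was the 1 array of that kind among the WT groups of the 20 probe sets, and chance gives about 1 such group in 20. The KO groups, with 3 arrays each, were not tested in this way. On the other 2 Ascl2 probe sets WT replicate 4 lay inside the WT range.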

How the results depend on the processing

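Under 18 alternatives none of the 8 marker genes passed an adjusted p of 0.05 (limma); the lowest values were 0.0630 for Prom1 and 0.0735 for Tnfrsf19, both with array weights. Ascl2, Tnfrsf19 and Cd44 kept their direction under all 18, while Lgr5 turned in 6, Lgr4 and Smoc2 in 2 each, and Lrig1 and Prom1 in 1 each. Not all 18 could turn a direction, as other level filters and the fit without trend leave a gene's difference unchanged. Scan batch 2 alone and the fit without KO replicate 1 gave the same differences. Within scan batch 1, which holds 1 KO array, assumed to vary like the others, the difference was 0.10 for Lgr5, -0.020 for Lgr4, -0.14 for Prom1, -0.085 for Lgr6, -0.018 for Mcm4, -0.049 for Hopx and -0.045 for Col3a1. With all probe sets of a gene averaged Lgr5 was at 0.034. With the Gapdh control probe sets' 3′ minus 5′ level (log2) as a covariate Lgr5 was at 0.13, Smoc2 at 0.096, Lrig1 at 0.0028, Lgr6 at -0.036 and Krt8 at -0.00098, and Prom1 at 0.0022; that level difference was -0.21 to -0.12 in WT and -0.24 to -0.15 in KO. The cause of these turns was not tested. With 1 array left out the difference ranged from -0.19 to 0.047 for Lgr5, from -0.038 to 0.12 for Lgr4, from -0.17 to 0.028 for Smoc2, from -0.34 to -0.10 for Lrig1, from -0.33 to -0.14 for Tnfrsf19, from 0.071 to 0.32 for Prom1, from 0.051 to 0.12 for Ascl2, from 0.057 to 0.11 for Cd44, from -0.022 to 0.14 for Lgr6, from -0.42 to 0.013 for Col1a1, from -0.48 to 0.91 for Col3a1 and from -0.013 to 0.098 for Pecam1. The number of genes called was 1370 with array weights, and 0 to 2 with 1 array left out (2 without WT replicate 2 and 2 without WT replicate 4). The smallest weight fell on KO replicate 1 (0.297) and the largest on KO replicate 2 (3.04). With them Rgmb, Msi1, Lef1, Nkd1, Mcm4, Guca2a, Atoh1, Hopx, Anxa1, Cdh5 and Mex3a passed (limma, adjusted p between 0.0269 and 0.0495), and Mex3a also without WT replicate 4 (0.0455). Alternatives for the 3 probe sets with an unadjusted p under 0.05 were added after seeing the data. They kept their directions in all 12, from 0.15 to 0.57 for Ascl2, 0.19 to 0.41 for Cd44 and -0.46 to -0.13 for Tnfrsf19. Among these 12, too, scan batch 2 alone and the fit without KO replicate 1 gave the same differences. No paired analysis was possible because the labels give no replicate numbers that the genotypes share.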
